A study of Mus musculus with 8 samples.

Results

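Epidermal growth factor (EGF) family genes were followed in RNA from fat pad cells collected as macrophages after imiquimod cream or control cream. The set holds 10 genes, taken by Ensembl identifier from the 56748 genes of the deposited count table. It comprises the ligands amphiregulin (Areg), epiregulin (Ereg), heparin-binding EGF-like growth factor (Hbegf), betacellulin (Btc), Egf itself, transforming growth factor alpha (Tgfa) and epigen (Epgn), and the receptors Egfr, Erbb2 and Erbb3. All 10 passed the filter on low counts and were among the 16780 genes tested.

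The mice were female and wild-type (WT). In the Aldara group (4 libraries) Aldara cream was spread on the shaved back near the tail base. Its active agent is imiquimod, at 5%, which activates Toll-like receptor 7. About 62.5 mg was given on each of 3 days, and the fat pads were removed 24 h later. The Vehicle group (4 libraries) had an equal volume of Boots Aqueous Cream/10% Vaseline Lanette Cream. Each library pooled F4/80 bead-selected cells of 6 inguinal fat pads, about 30000 cells, from preparations with more than 90% F4/80+CD64+ cells by flow cytometry. Imiquimod cannot be told apart from other constituents of Aldara. Nothing in the labels states which animals each pool was drawn from, and a p-value here reflects only variation among pools, part of which may be technical.

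Ligands of this family are made as membrane-anchored precursors. Metalloproteases of the ADAM family, ADAM17 and ADAM10 above all, release the growth factor domain, which binds EGFR or ERBB4 and makes the receptors pair. ERBB2 has no known ligand of its own and ERBB3 has little kinase activity, so both signal as partners of other members. In the mammary gland, part of which lies in the inguinal fat pad, amphiregulin is the ligand that oestrogen induces in hormone-sensing luminal cells and is needed for the ducts to grow. Macrophages can also make amphiregulin, epiregulin and HB-EGF.

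Areg, Ereg, Epgn and Btc lie in a cluster on mouse chromosome 5. In GENCODE M21 (GRCm38, plus strand unless stated) Epgn spans chr5:91027464-91035215, Ereg chr5:91074622-91093646, Areg chr5:91139599-91148432 and Btc, on the minus strand, chr5:91357261-91402994. Sequences upstream of the start are shown for the 3 of these genes that had lower means in Aldara and an entry in the promoter table, to let their promoters be compared. They come from RefSeq (GRCm38.p6), run 5′ to 3′ on the strand of the gene and end at the base before the first annotated start. For Epgn the start is that of the first GENCODE transcript, and the 53 bases from there to the RefSeq start, from which positions below are counted, are left out. Capitals mark the cAMP response element (CRE, TGACGTCA) and TATA motif (TATAAA) in Areg, and the CRE half-site, TGACG in Epgn and its reverse complement CGTCA in Btc.

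Areg, chr5:91139349-91139598, plus strand: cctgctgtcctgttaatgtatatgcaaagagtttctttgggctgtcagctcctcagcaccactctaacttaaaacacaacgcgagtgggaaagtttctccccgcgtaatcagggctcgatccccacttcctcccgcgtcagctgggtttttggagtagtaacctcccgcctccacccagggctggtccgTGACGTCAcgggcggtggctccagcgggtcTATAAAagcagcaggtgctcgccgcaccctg
Btc, chr5:91402995-91403244, minus strand: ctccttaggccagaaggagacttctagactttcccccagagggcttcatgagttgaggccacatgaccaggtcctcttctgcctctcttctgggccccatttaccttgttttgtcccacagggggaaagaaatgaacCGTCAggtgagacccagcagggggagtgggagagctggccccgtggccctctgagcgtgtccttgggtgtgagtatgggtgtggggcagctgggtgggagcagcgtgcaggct
Epgn, chr5:91027267-91027463, plus strand: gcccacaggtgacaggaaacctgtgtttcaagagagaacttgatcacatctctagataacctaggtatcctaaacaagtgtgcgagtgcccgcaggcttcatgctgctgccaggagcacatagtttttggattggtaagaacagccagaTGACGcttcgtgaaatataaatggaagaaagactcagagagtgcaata

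Windows of 250 bases before to 50 after each start were searched on both strands for 6 motifs: CRE, its half-site TGACG, AP-1 (TGANTCA), the palindromic oestrogen response element (ERE), the palindromic glucocorticoid and progesterone receptor element (GRE) and TATA. ERE and GRE were searched as their consensus with a spacer of 3 bases. The full CRE of Areg begins 61 bases before the start and its TATA motif 31 bases before it. A full CRE was present in 1.79% of the 32851 windows and TATAAA in 13.6%. Btc and Epgn hold 1 half-site each, 113 and 101 bases upstream, as do 20.8% of all windows, a share that includes windows with the full element. Areg also holds a half-site outside its CRE, 115 bases upstream and not in capitals, and Erbb2 holds 1, 171 bases upstream. Epgn also has TATAAA, 86 bases upstream. AP-1, ERE and GRE letters were not in the windows of the 7 members matched, and they were in 7.81%, 0.07% and 0.009% of all windows. Such matches describe letters, not bound sites.

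Total counts lay between 21874780 and 34471508 in Vehicle and between 19537607 and 24340674 in Aldara. Luminal epithelial markers were high in all 8 libraries, against the label and the stated purity, and summed to more CPM than macrophage markers. Sums over different genes do not measure the share of RNA from each cell type. The 8 luminal markers (Epcam, Krt8, Krt18, Krt19, Krt7, Cldn3, Cldn4, Cdh1) summed to 12740 to 18260 CPM in Vehicle and 12450 to 16050 CPM in Aldara, where CPM stands for counts relative to TMM-scaled library size. The 10 macrophage markers summed to 1431 to 2983 CPM in Vehicle and 3358 to 9195 CPM in Aldara. In such bulk libraries fewer cells of a type and less RNA per cell cannot be told apart.

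Of the 10 genes, Areg and Btc fell with Aldara and Hbegf rose, by edgeR's quasi-likelihood test with Benjamini-Hochberg adjustment over all genes tested. The other 7 did not pass. That is 30% of a small set, beside 10.8% of all genes tested (3.86% lower and 6.98% higher in Aldara). The median log2 fold change (Aldara minus Vehicle) was −0.14 over the 10 genes and 0.01 over all genes. Aldara and Vehicle libraries separated fully for Areg and Btc (lower in Aldara, as for 7.79% of all genes tested) and for Hbegf and Egfr (higher, as for 9.97%), 4 of 10 genes in all beside 17.8%.

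**Figure D1:**
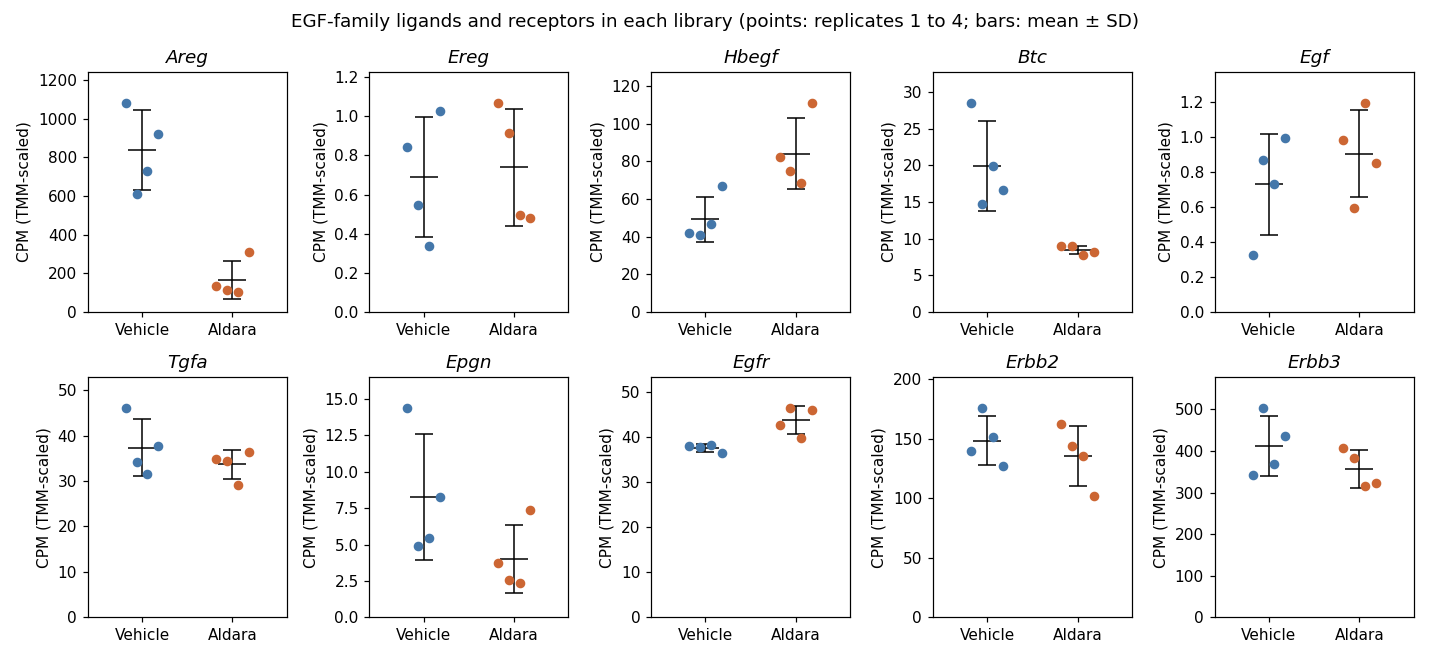
TMM-scaled CPM (vertical axes, from 0) of the 10 genes in the 4 Vehicle and 4 Aldara libraries, 1 point per library, with the group mean and SD as a bar. Areg and Btc are lower in all 4 Aldara libraries, Hbegf and Egfr are higher in all 4, and the groups overlap for the other 6 genes.

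Amphiregulin showed the largest change of the 10 genes. Areg (ENSMUSG00000029378) measured 1079, 613, 731.5 and 922 CPM in Vehicle replicates 1 to 4 and 137, 116, 106 and 311 CPM in Aldara replicates 1 to 4. The highest Aldara library (311) stayed well under the lowest Vehicle library (613), and Aldara replicate 4 stood above the other 3. Means were 836 ± 206 CPM in Vehicle and 167 ± 96.8 CPM in Aldara (SD, n = 4 each). The fall was 5.00-fold (log2 fold change −2.32, SE 0.36, 95% interval −3.14 to −1.51, adjusted p = 0.00623). Of the 647 genes that fell, 48 had a more negative log2 fold change than Areg. Without Aldara replicate 4 the log2 fold change was −2.83 (adjusted p = 0.000558).

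Betacellulin, a ligand of both EGFR and ERBB4, fell as well, at a far lower level. Btc (ENSMUSG00000082361) measured 28.5, 14.7, 20 and 16.6 CPM in the Vehicle libraries and 8.97, 8.97, 7.82 and 8.25 CPM in the Aldara libraries. The Aldara libraries lay close together below all Vehicle libraries, among which replicate 1 was the highest. It fell 2.34-fold, with means of 19.9 ± 6.10 and 8.50 ± 0.56 CPM (log2 fold change −1.23, SE 0.19, adjusted p = 0.00441).

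Epigen, a ligand of low affinity for EGFR, shared the order of libraries with Areg without passing the test. Epgn (ENSMUSG00000035020) measured 14.4, 4.89, 5.48 and 8.29 CPM in Vehicle, against 3.72, 2.55, 2.35 and 7.40 CPM in Aldara. In both genes Vehicle replicate 1 was the highest and replicate 2 the lowest of their group, and Aldara replicate 4 stood above the other 3. The groups overlapped because of that Aldara library. The log2 fold change was −1.05 (SE 0.45, 95% interval −2.06 to −0.04, adjusted p = 0.174). With the replicate number as a block Epgn passed the test (−1.06, adjusted p = 0.0335).

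HB-EGF, a ligand that binds heparan sulphate and is made by macrophages and epithelium, moved the other way. Hbegf (ENSMUSG00000024486) measured 42.1, 41.2, 46.9 and 66.7 CPM in Vehicle, against 82.4, 74.7, 68.4 and 111 CPM in Aldara. All Aldara libraries were above all Vehicle libraries, though the highest Vehicle value (66.7) and the lowest Aldara value (68.4) were close. Hbegf rose 1.71-fold (log2 fold change 0.77, SE 0.19, 95% interval 0.35 to 1.19, adjusted p = 0.0287). It missed the threshold on leaving out any of 5 libraries, Vehicle replicates 1, 2 and 3 and Aldara replicates 2 and 4 (adjusted p up to 0.0793), and with no filter on low counts (adjusted p = 0.087).

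The remaining ligands showed no detected change. Tgfa, an EGFR ligand of epithelia, lay between 31.5 and 46 CPM in Vehicle and between 29 and 36.4 CPM in Aldara, with an interval of the log2 difference from −0.42 to 0.13 (adjusted p = 0.509). Ereg, a ligand that activates several ErbB pairs, had 74 counts in all Vehicle libraries together and 69 in those of Aldara (0.69 ± 0.31 and 0.74 ± 0.30 CPM). Egf, the founding ligand, had 83 counts in each group (0.73 ± 0.29 and 0.91 ± 0.25 CPM). At these depths the intervals of the log2 difference were wide, from −0.80 to 1.04 for Ereg and from −0.51 to 1.09 for Egf. A rise of about 2-fold, or a smaller fall, could thus not be told from none. Reads were PCR products with no molecular tags, so a count is not a number of molecules.

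The receptors varied little. Egfr, the receptor of all 7 ligands, measured 37.8, 37.7, 38.1 and 36.3 CPM in Vehicle, against 42.6, 46.3, 39.8 and 46 CPM in Aldara. Every Aldara library was above every Vehicle library, by a small amount (log2 fold change 0.22, SE 0.08, adjusted p = 0.107, which misses the threshold of 0.05). Erbb2, the shared partner receptor, lay between 127 and 175 CPM in Vehicle and between 102 and 162 CPM in Aldara (log2 difference −0.44 to 0.19, adjusted p = 0.637). Erbb3, the neuregulin receptor, lay between 343 and 502 CPM in Vehicle and between 316 and 407 CPM in Aldara (−0.51 to 0.09, adjusted p = 0.386). Mien1 overlaps Erbb2 on the other strand and the library kit does not mark the strand. Reads in the overlap may thus be assigned to the wrong gene or left uncounted.

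Outside the 10 genes, the family has the receptor Erbb4 and the neuregulins, ligands of ERBB3 and ERBB4. Of the 4 that could be tested, Nrg4 fell and Erbb4, Nrg1 and Nrg2 did not pass, and Nrg3 had 0 counts in all libraries. Nrg4 measured 34.8, 65.5, 60.6 and 56.6 CPM in Vehicle, against 33.8, 30.8, 26.1 and 36.6 CPM in Aldara. Vehicle replicate 1 lay among the Aldara libraries, so the groups overlapped (log2 fold change −0.77, SE 0.18, adjusted p = 0.0258). It missed the threshold on leaving out any of 5 libraries, Vehicle replicates 2, 3 and 4 and Aldara replicates 2 and 3 (adjusted p up to 0.0769), and with scaling to luminal markers (adjusted p = 0.0527). Exons of Nrg4 overlap Fbxo22 on the other strand, so reads there may be assigned to the wrong gene or left uncounted. Erbb4 measured 9.92 ± 2.73 and 9.62 ± 2.13 CPM.

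**Figure D2:**
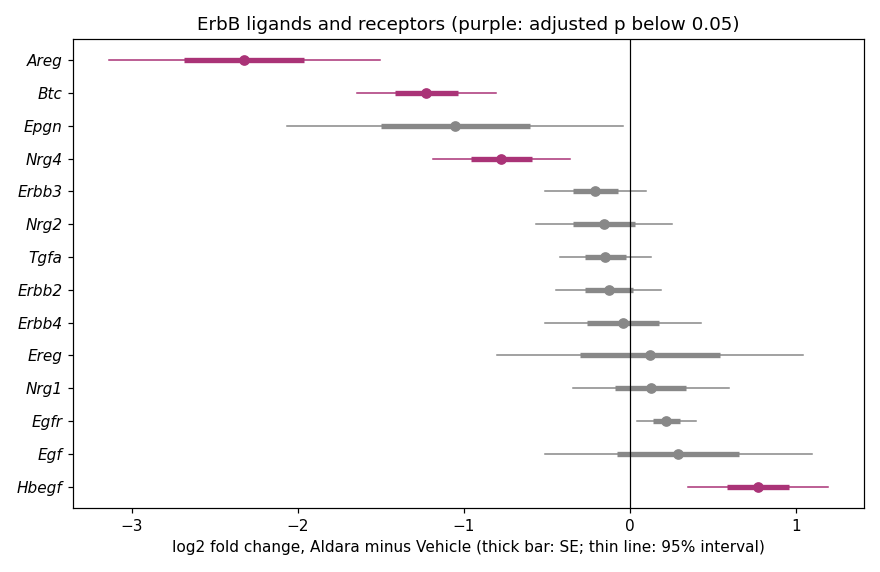
Log2 fold change, Aldara minus Vehicle (horizontal axis), of the 10 genes and of Erbb4, Nrg1, Nrg2 and Nrg4, with the SE as a thick bar and the 95% interval as a thin line, over 4 libraries per group. Areg at −2.32, Btc at −1.23, Nrg4 at −0.77 and Hbegf at 0.77 are the 4 genes that passed the test.

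Levels of different genes were compared per kilobase of annotated exon. In Vehicle Areg stood at 688 ± 169 CPM per kilobase, rank 42 among 13863 protein-coding genes tested. Erbb3 followed at 68.5 ± 11.9, Erbb2 at 28.4 ± 3.95 and Hbegf at 10.2 ± 2.47 CPM per kilobase, and the library ranges of these 4 genes did not overlap. Tgfa (5.75), Epgn (4.57), Btc (4.41) and Egfr (3.31 CPM per kilobase) came next. Of these, the ranges of Tgfa, Epgn and Btc overlapped each other, as did those of Epgn, Btc and Egfr. Ereg (0.17) and Egf (0.06 CPM per kilobase) were the lowest and overlapped each other.

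In Aldara Areg remained the highest of the 10, at 138 ± 79.7 CPM per kilobase and rank 255. Hbegf, at 17.4 ± 3.87 CPM per kilobase, then overlapped in range with Erbb2 at 26 ± 4.83. Btc (1.88) and Epgn (2.21) were below Egfr (3.85 CPM per kilobase), with the ranges of Epgn and Egfr overlapping. Areg made up 96.4% ± 0.21 of the summed level per kilobase of the 7 ligands in Vehicle and 82.1% ± 4.03 in Aldara, the latter with 88.1% in replicate 4 and 79.6% to 80.8% in the other 3. The other 6 ligands together stood at 25.1 ± 4.88 CPM per kilobase in Vehicle and 26.9 ± 5.52 in Aldara. With the longest transcript as the length, Hbegf in Vehicle came to 17.0 and Egf to 0.15 CPM per kilobase.

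**Figure D3:**
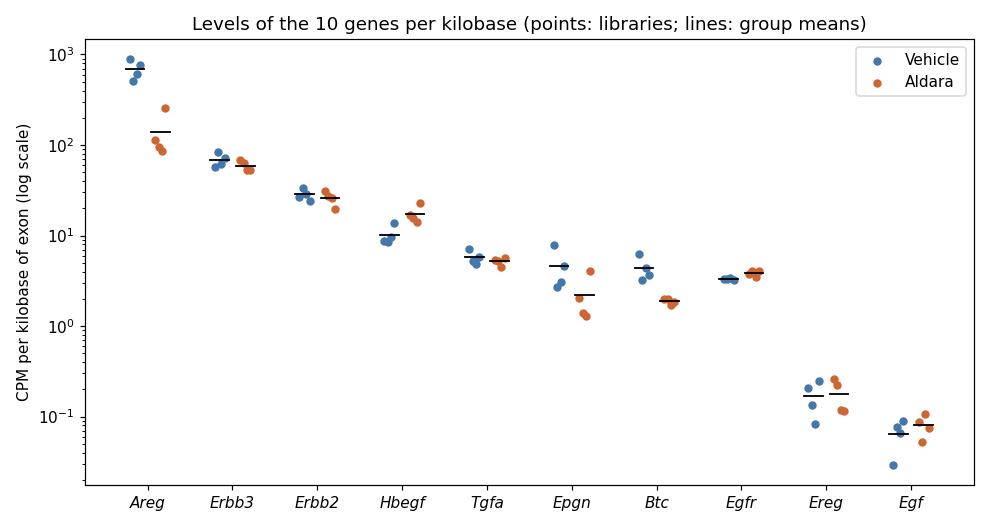
CPM per kilobase of exon (vertical log axis) of the 10 genes, ordered by their Vehicle mean, with 1 point per library and a line at each group mean. Areg leads in both groups at 688 and 138 CPM per kilobase, while Ereg and Egf stay under 0.3.

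Because markers of both epithelium and macrophages left reads, each gene was also set against both marker lists in each library. None of the 8 luminal markers passed edgeR's test or voom, 2 passed DESeq2, and 2 had an unadjusted p under 0.05, both lower in Aldara. With the replicate block 1 rose and 2 fell. The geometric mean of the list lay between 1260 and 1761 CPM in Vehicle and between 1235 and 1575 CPM in Aldara. Relative to it, Areg stood at −0.71, −1.20, −0.78 and −0.81 on the log2 scale in Vehicle and at −3.52, −3.54, −3.55 and −2.27 in Aldara. The groups stayed apart, and with libraries scaled to the luminal markers the log2 fold change was −2.24 for Areg (adjusted p = 0.00392) and −1.12 for Btc (0.00188). Relative to the luminal markers the mean of Tgfa differed by −0.05 between the groups and that of Erbb2 by −0.05. Hbegf relative to them averaged −4.96 ± 0.35 in Vehicle and −4.09 ± 0.23 in Aldara, and the groups did not overlap. With luminal scaling its log2 fold change was 0.85 (adjusted p = 0.00325).

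Of the 10 macrophage markers 5 rose and 0 fell by edgeR (Adgre1, C1qa, C1qb, C1qc and Lyz2), and 9 had an unadjusted p under 0.05. DESeq2 and the replicate block called 9 higher each, voom 5 and luminal scaling 1, with 0 lower in each. Their geometric mean lay between 95.2 and 182 CPM in Vehicle and between 197 and 516 CPM in Aldara. Hbegf relative to it averaged −1.47 ± 0.43 on the log2 scale in Vehicle and −2.06 ± 0.68 in Aldara, and the groups overlapped. The geometric mean of these markers thus rose more on average than Hbegf did. Single markers differed widely, with log2 fold changes from 0.42 for Fcgr1 to 3.55 for Adgre1, so this comparison depends on the list. The part of macrophage content in the rise of Hbegf was not tested. Relative to this rising reference all 10 genes had lower means in Aldara, from −0.59 for Hbegf to −3.80 for Areg on the log2 scale. The groups did not overlap for 4 of them, Areg, Btc (−2.55), Epgn (−2.43) and Erbb2 (−1.50). That count has no share over all genes beside it. A gene with steady CPM also falls relative to a rising reference. In CPM the groups overlapped for Epgn and for Erbb2, whose log2 fold change was −0.13.

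Other cell types known to make amphiregulin left few reads. Mast cell markers summed to 5.68 to 9.96 CPM in Vehicle and 10.6 to 17.2 CPM in Aldara, most of it from Hdc, which rose (log2 fold change 0.93, adjusted p = 0.0135), while the other 5 (Cpa3, Mcpt4, Cma1, Tpsb2, Fcer1a) were too low to test. The 3 basophil markers summed to at most 0.56 CPM, with Prss34 at 0 counts. Markers of group 2 innate lymphoid or regulatory T cells summed to 5.03 to 7.88 CPM in Vehicle and 1.92 to 5.75 CPM in Aldara. Among them Il1rl1, the IL-33 receptor, fell from 4.99 ± 1.48 to 2.08 ± 1.02 CPM and Il2ra rose from 0.27 ± 0.12 to 1.35 ± 0.71 CPM (adjusted p = 0.0458 and 0.0138). Il1rl1 did not pass when blocked by replicate. Of 4 markers of keratinocytes, which also make amphiregulin, Krt1, Krt10 and Lor were highest by far in Vehicle replicate 3, with Krt1 at 38.2 CPM there and between 1.01 and 4.06 CPM in the other 7 libraries. Ivl, the other marker, was at 0.45 CPM there and 0.42 CPM in Vehicle replicate 1. With Vehicle replicate 3 left out Areg had a log2 fold change of −2.38 (adjusted p = 0.0168).

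Among hormone-sensing luminal genes, where Areg is an oestrogen target, 3 of 7 tested genes fell and 0 rose, beside 3.86% and 6.98% of all genes tested. The median log2 fold change was −0.42, beside 0.01 for all genes. Pgr, the progesterone receptor and itself an oestrogen target, measured 720, 475, 266 and 467 CPM in Vehicle, against 101, 160, 73.2 and 188 CPM in Aldara (log2 fold change −1.88, SE 0.36, adjusted p = 0.0119, and 0.0628 with no filter on low counts). Greb1, another oestrogen-induced gene, fell from 17.4 ± 22.1 to 0.97 ± 0.13 CPM (log2 fold change −4.13, adjusted p = 0.0233), with Vehicle replicate 1 at 49.9 CPM. Without that library its log2 fold change was −2.73 (adjusted p = 0.0157). Wnt4, a progesterone-induced signal, fell from 204 ± 34.6 to 148 ± 16.9 CPM (adjusted p = 0.0453, or 0.0668 when blocked by replicate). Esr1, the oestrogen receptor, measured 232 ± 32.5 and 242 ± 17.5 CPM (adjusted p = 0.784), and Cited1, Foxa1 and Prlr did not pass either.

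The number of genes lower in this list was 5 by DESeq2, 1 by voom and 1 with luminal scaling, and 0 were higher in each. At an unadjusted p under 0.05, 5 were lower and 0 higher. The call on Greb1 was lost without any 1 of the 4 Aldara libraries (highest adjusted p = 0.106) and with luminal scaling, voom or no filter (0.0781, 0.139 and 0.112). That on Wnt4 was lost on leaving out replicate 2, 3 or 4 of either group (highest 0.114) and with luminal scaling or voom (0.195 and 0.0525). Of 5 genes of secretory luminal progenitors 0 passed edgeR, DESeq2 or voom, with 1 (Aldh1a3) at an unadjusted p under 0.05. Their median log2 fold change was 0.17.

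The genes most like Areg were found by the root mean square difference, over the 8 libraries, of log2 CPM centred on the mean of each gene, among 11123 named genes whose higher group averaged 5 CPM or more. The nearest 5 were Slc5a5 (0.47), Cxcl15 (0.51), Mycl (0.51), Tmed3 (0.51) and Pgr (0.51). Slc5a5, the iodide symporter, measured 1171, 591, 333 and 623 CPM in Vehicle, against 93.5, 98.4, 57.1 and 130 CPM in Aldara. Cxcl15, a chemokine of glandular epithelia, averaged 180 and 36.8 CPM, Mycl, a Myc family transcription factor, 81 and 22 CPM, and Tmed3, a protein of the secretory pathway, 582 and 138 CPM. As in Areg, Vehicle replicate 1 was the highest library for all 5, and Aldara replicate 4 led the Aldara libraries except for Cxcl15. Choosing by likeness fixes the direction, so these values are a description.

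**Figure D4:**
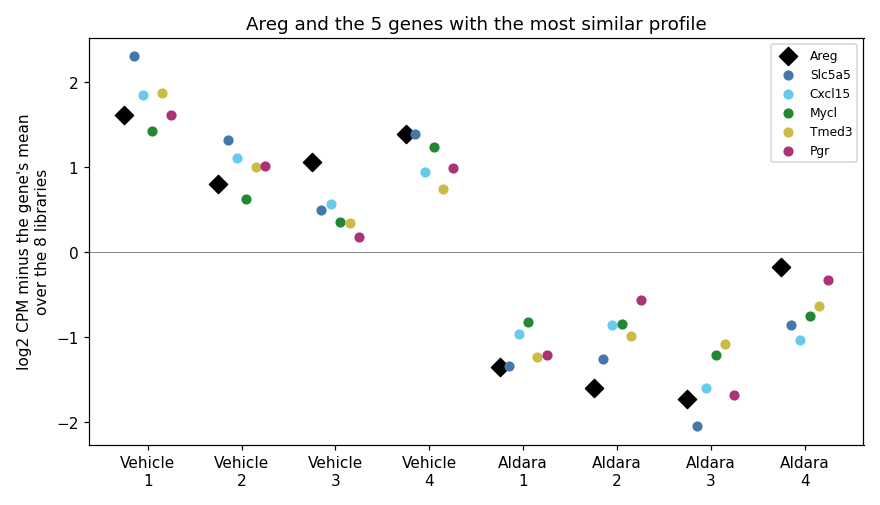
Log2 CPM minus the mean of the gene over the 8 libraries (vertical axis) for Areg (black diamonds) and its 5 nearest genes in each library. The 4 Vehicle libraries lie above 0 and the 4 Aldara libraries below 0 for all 6 genes.

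Cxcl15 lies on the same stretch of chromosome 5 as Areg, with its start at −345.1 kilobases from that of Areg. Within 500 kilobases either side of the Epgn to Btc cluster 11 other genes could be tested. Of these 3 fell and 0 rose, beside 3.86% and 6.98% of all genes tested. They were Cxcl15 (log2 fold change −2.29, SE 0.28), Gm43085 (−2.38, SE 0.40) and Gm19619 (−3.19, SE 0.48). Adjusted p-values were 0.00268, 0.00697 and 0.00431. Cxcl15 had been picked by its likeness to Areg, which fixed its direction. Gm43085 is an annotated model still to be verified. Gm19619 is a long non-coding RNA that starts 143.8 kilobases past Areg, between Areg and Btc. Gm19619 averaged 3.94 CPM in Vehicle and 0.45 CPM in Aldara.

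Other neighbours did not pass. Mthfd2l, a mitochondrial folate enzyme, had a log2 fold change of −0.35 (adjusted p = 0.0539), and the neutrophil attractants Cxcl1 and Cxcl2 −0.45 and −0.85 (0.168 and 0.123). Cxcl3, of the same chemokine family, was at −1.39 (0.125). The other 4 were near 0 or above it: Rassf6 at −0.09, Parm1 at 0.07, Afm at 0.10 and Pf4 at 0.24. Pf4 (platelet factor 4), at −367.2 kilobases, lies close to Cxcl15, and its value could not be told from 0 (SE 0.30). The median log2 fold change of the 11 other genes tested was −0.45, beside 0.01 for all genes tested. Ereg had few counts and a wide interval. The window was chosen after these values were seen, so it is a description of this stretch.

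**Figure D5:**
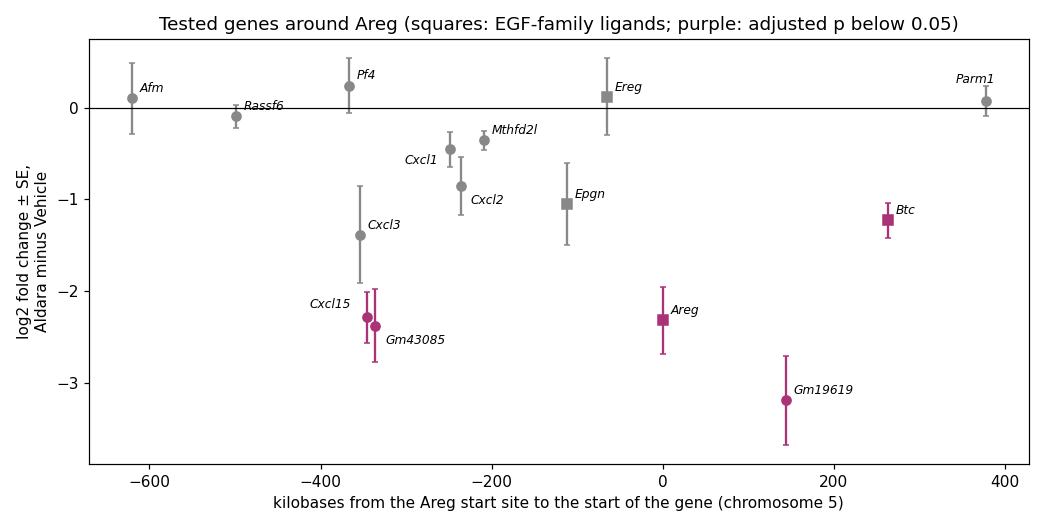
Log2 fold change, Aldara minus Vehicle, with its SE (vertical axis) for the 15 tested genes around Areg against the distance of their start from that of Areg in kilobases (horizontal axis). Areg, Btc, Cxcl15, Gm43085 and Gm19619 passed the test, all below 0, and none of the other 10 passed.

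Genes that release the ligands changed in part. Of 14 genes of shedding 1 rose and 2 fell (beside 6.98% and 3.86% of all genes tested, as for the lists that follow), with a median log2 fold change of 0.06 (3 rose and 2 fell with the replicate block). Adam19, a metalloprotease able to cleave neuregulin, averaged 9.63 ± 0.79 CPM in Vehicle and rose to 27.4 ± 8.16 CPM in Aldara (log2 fold change 1.51, adjusted p = 0.00272). Cd9, a tetraspanin that associates with the HB-EGF precursor, fell from 693 ± 72.3 to 422 ± 42.6 CPM (adjusted p = 0.00476). Adam10, the sheddase of betacellulin and EGF, stood at 617 ± 46.9 CPM in Vehicle and fell to 461 ± 19.2 CPM (adjusted p = 0.0173). It missed the threshold on leaving out Vehicle replicate 2 or Aldara replicate 3 (0.053 and 0.0566) and with luminal scaling (0.247). Adam17, the sheddase of amphiregulin and HB-EGF, measured 77 ± 3.29 and 92.6 ± 13.2 CPM (adjusted p = 0.129), and its cofactors Rhbdf1 and Rhbdf2 did not pass (0.088 and 0.151).

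Of 26 adaptors and kinases downstream of the receptors 2 rose and 0 fell, a share near the 10.8% called over all genes, with a median of 0.06. Gab2 and Grb2, docking and adaptor proteins, rose by 0.64 and 0.53 on the log2 scale (adjusted p = 0.00902 and 0.0295). At an unadjusted p under 0.05, 6 were higher and 1 lower. DESeq2 and voom called 2 higher and 0 lower, and upper-quartile scaling 2 higher and 1 lower. Sos1, the exchange factor of Ras, did not pass (0.36, adjusted p = 0.0573), but passed when blocked by replicate (0.0399) and without Aldara replicate 1 (0.44, 0.0175). The call on Grb2 was lost on leaving out any of 5 libraries, Vehicle replicates 1, 2 and 4 and Aldara replicates 3 and 4, and with luminal scaling (adjusted p up to 0.1).

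Of 17 receptor inhibitors 2 rose and 1 fell (blocked by replicate, 3 and 2), and the median was 0.05. Sh3kbp1, an adaptor of receptor endocytosis, rose from 15.5 ± 2.04 to 34.8 ± 13.6 CPM (adjusted p = 0.0261) and Rnf41, a ubiquitin ligase of ERBB3, by 0.29 on the log2 scale (0.0449). Spry4, a feedback inhibitor induced by ERK, fell from 19.7 ± 1.96 to 14.2 ± 2.12 CPM (0.0414). These 3 calls were lost on leaving out 5, 7 and 6 of the 8 libraries in turn (highest adjusted p = 0.0833, 0.141 and 0.111) and with luminal scaling (0.0631, 0.207 and 0.325). Sh3kbp1 also missed the threshold with no filter (0.12) and Spry4 with voom (0.0507). Rnf41 also missed it with no filter (0.137), voom (0.0505), upper-quartile scaling (0.0861) and the size factors of DESeq2 in edgeR (0.0585). Errfi1, an inhibitor of the EGFR kinase, measured 655 ± 91 and 881 ± 144 CPM (adjusted p = 0.0787).

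Of 16 genes induced by ERK signalling 1 rose and 2 fell (blocked by replicate, 3 and 3), and the median was 0.05. Ccnd1, cyclin D1, averaged 211 ± 31.2 CPM in Vehicle and fell to 113 ± 21.9 CPM in Aldara (log2 fold change −0.90, adjusted p = 0.00524). Etv4, an ETS transcription factor, fell from 18.4 ± 1.16 to 12 ± 1.56 CPM (adjusted p = 0.00935, and 0.13 with luminal scaling). Dusp5, an ERK phosphatase, rose by 0.35 on the log2 scale (adjusted p = 0.049). That call was lost on leaving out any 1 library (highest 0.146) and with upper-quartile or luminal scaling (0.0698 and 0.0723). It was also lost with the size factors of DESeq2 in edgeR (0.0607) and with no filter (0.0618). The immediate-early genes Egr1, Fos and Junb did not pass, at 1021 ± 193 and 1158 ± 280, 1697 ± 267 and 1441 ± 465, and 1395 ± 152 and 1432 ± 203 CPM.

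The Areg window holds a CRE, and a list of genes induced by cAMP and of prostaglandin E2 genes was read beside it. Of its 13 genes 1, a prostaglandin E2 receptor, rose and 0 fell. The median was 0.10, and 4 were higher and 0 lower at an unadjusted p under 0.05. DESeq2 called 2 higher and voom 1, with 0 lower. Ptger4, a receptor of prostaglandin E2, averaged 23.1 ± 1.88 CPM in Vehicle and rose to 42 ± 6.27 CPM in Aldara (log2 fold change 0.86, SE 0.12, adjusted p = 0.00236). Crem, a CREB family factor, and Ptger2 did not pass (0.0624 and 0.0762), though Crem did without Aldara replicate 1 (0.00826) and Ptger2 did by DESeq2 (0.0451). Nr4a1, Sik1 and Per1 measured 712 ± 81.8 and 785 ± 120, 600 ± 94.4 and 589 ± 64.3, and 268 ± 44 and 284 ± 22.4 CPM.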

How the data were processed

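The deposited table holds raw counts of reads per gene from the authors. HISAT2 2.0.5, featureCounts 1.5.0-p3, DESeq2 and the mm10 build were used, per the submitters' processing notes, and the labels state no counting options. Per the labels' protocols, poly-A RNA was amplified with a SMARTer ultra-low-input kit, which does not mark the strand. GENCODE M21 named 52073 identifiers (91.8%). The 4675 unnamed ones, some newer than that annotation, held 0.71% to 1.29% of a library. Coordinates and exon lengths are those of M21, which need not be the gene models counted. Promoters came from RefSeq (7 of 10 genes matched). Chromosome 18, where Hbegf lies, was left out of that match.

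Counts were tested with edgeR 4.0.16 (R 4.3.3): filterByExpr, TMM factors (0.957 to 1.035), robust quasi-likelihood F test, threshold 0.05, SE from the F statistic. Alternatives used limma 3.58.1 (voom), DESeq2 1.42.0, other scalings and filters, a replicate block and leaving out each library. The procedure was tested on simulated data, where the false share of calls was above the nominal threshold, so calls close to it are less certain. Precision is limited by 4 libraries per group.

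Replicate numbers are shared by the groups in the labels. Deviations from group means of same-numbered libraries correlated across genes (0.23, 0.11, 0.17 and 0.22), each highest for its own number. That is a hint of pairing from the data. The main test did not pair libraries, and the replicate block was run as an alternative. No 2 libraries of a group agreed within sampling noise (chi-square per degree of freedom at least 18.2).

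Members and lists were chosen with earlier results of these data known. Named are all 10 members, Erbb4 and the neuregulins, up to 3 genes of smallest p per list and the 5 nearest to Areg. Others, such as Esr1, Adam17, Errfi1, Egr1, Hdc, Il1rl1, Il2ra, Krt1 and the neighbours on chromosome 5, were chosen after their values were seen.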

Additional observations from a re-analysis of the deposited data

Results flagged for a closer look

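Areg in Aldara replicate 4 measured 311 CPM, far from the 137 CPM of the next library of its group. That gap was 0.848 of the range of the group, above the 0.829 that Dixon's test allows for 4 samples. Chance gives such a gap in about 1 of 20 groups, and 20 groups (10 genes in each treatment) were examined, of which only this group exceeded the limit. That library still lay under all 4 Vehicle libraries.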

How the results depend on the processing

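Areg and Btc fell under every alternative run. Adjusted p-values for Areg lay between 1.27e-05 and 0.0352 over other scalings, tests, filters and the block, and between 0.000558 and 0.0201 with a library left out (log2 fold change −2.83 to −2.15). For Btc they reached at most 0.0081 and 0.0176. Hbegf kept its direction but missed the threshold with no filter on low counts (0.76, adjusted p = 0.087) and ranged from 0.59 to 0.95 with a library left out. With the replicate block Epgn passed (−1.06), as did Sos1, Wnt4 and Il1rl1 did not, and no other call on the members or on the pathway genes named under the rule changed.

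Accordingly 1 member was higher and 2 were lower in Aldara, with 0 higher under no filter, 0 to 1 higher with a library left out and 3 lower with the block. Over all genes, 1171 were higher and 647 lower (64.4% higher). With upper-quartile factors the split was 979 and 990 (49.7%), with luminal scaling 815 and 292, with DESeq2 1471 and 1154, and with the block 1546 and 1030. With a library left out, 629 to 1405 were higher and 323 to 664 lower. No called gene of these sets changed sign. The causes were not tested. Depth limits Ereg and Egf, with 74 and 83 counts in Vehicle.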

Other observations

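Fibroblasts, which carry EGFR in the mammary stroma, left some reads in these F4/80-selected cells. Of 5 fibroblast markers 4 fell and 0 rose by edgeR (4 and 0 also at an unadjusted p under 0.05), beside 3.86% and 6.98% of all genes tested. Col3a1, a fibrillar collagen, measured 123 ± 70.7 and 28.2 ± 9.86 CPM (log2 fold change −2.13, adjusted p = 0.0102). Pdgfra, a receptor on fibroblasts, measured 6.99 ± 1.33 and 6.27 ± 1.78 CPM (adjusted p = 0.74). The number of markers that fell was 3 by voom and 2 with luminal scaling.

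Basal epithelium, the layer around the luminal cells, had 6 markers tested, of which 0 passed edgeR or voom. DESeq2 and the replicate block called 1 lower each, and 1 was lower at an unadjusted p under 0.05. Their sum lay between 857 and 1132 CPM in Vehicle and between 643 and 1045 CPM in Aldara.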
